A study of Bubalus bubalis with 6 samples.

Results

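The circRNAs and mRNAs of 6 genes that act on RNA were compared between young and adult buffalo adipose tissue. The genes were *LARP1B*, *ZC3H6*, *ATXN2*, *PAPD4*, *ARGLU1* and *DHX36*, out of 4000 host genes with a single symbol. They were taken by symbol, with each circRNA apart and summed per gene, and with the mRNA of the transcripts that the circRNA table names for them. In all, they gave 53 of the 14990 circRNAs and 1383 of the 83165 back-spliced reads (1.66%). The genes were proposed with results of these libraries known, and the values they were chosen by are taken here to be their circRNA levels, although the rule names symbols only. The age differences of their circRNAs are therefore given as a description with no test. The mRNA levels were tested, but whether they also entered the choice is not known. The samples were subcutaneous adipose tissue of 3 young (6 months) and 3 adult (30 months) Chinese buffaloes of the swamp type, raised on 1 farm and collected at slaughter, with 1 library per animal. No treatment was given, and sex was not given in the sources used here. The groups differ in age only as far as the labels say. Positions are those of the cattle genome UMD3.1, as deposited.

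A circRNA forms when a splice donor is joined to an acceptor upstream of it, so that the reads across that back-spliced junction count the circle and not the linear mRNA. LARP1B belongs to the La-related proteins, whose relative LARP1 binds mRNAs of the translation machinery. ZC3H6 carries CCCH zinc fingers, a fold that often binds RNA. Ataxin-2, encoded by *ATXN2*, binds the poly(A)-binding protein and enters stress granules, and mice without it become obese. PAPD4, also named TENT2 or GLD2, is a cytoplasmic poly(A) polymerase that adds adenosines to the 3′ ends of mRNAs and miRNAs. ARGLU1 is a nuclear protein that modulates splicing, and DHX36 is a DEAH-box helicase that unwinds G-quadruplexes.

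In young adipose tissue *LARP1B*, *ZC3H6* and *ATXN2* gave far more circular reads than in adult tissue, while the sums of *PAPD4*, *ARGLU1* and *DHX36* overlapped between the ages. Levels are scaled back-spliced reads, in which 1 read counts for 1.42 to 2.59 units, depending on the library. The libraries held 10745 to 17680 back-spliced reads, with no order by age. Of the 6 sums, 3 were lower in every adult library than in any young library and none was higher in every adult library. Over all 2090 host genes with a read in at least 3 libraries, 17.8% were lower and 6.41% higher in that way. The 2090 include genes of few reads, and the share among genes of like depth is not given here. *LARP1B* was the 4th of the 4000 host genes by back-spliced reads (605 reads, 0.727% of all), and *PAPD4* the 18th (364 reads). *ATXN2* held 229 reads, *ZC3H6* 144, *ARGLU1* 25 and *DHX36* 16. The median log2 fold change over the 2090 sums was −0.40 on this scale and −0.23 when reads were set against all back-spliced reads of a library, so a lower adult level was common among host genes. In bulk tissue, fewer cells of a type and less RNA per cell cannot be told apart.

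**Figure D1:**
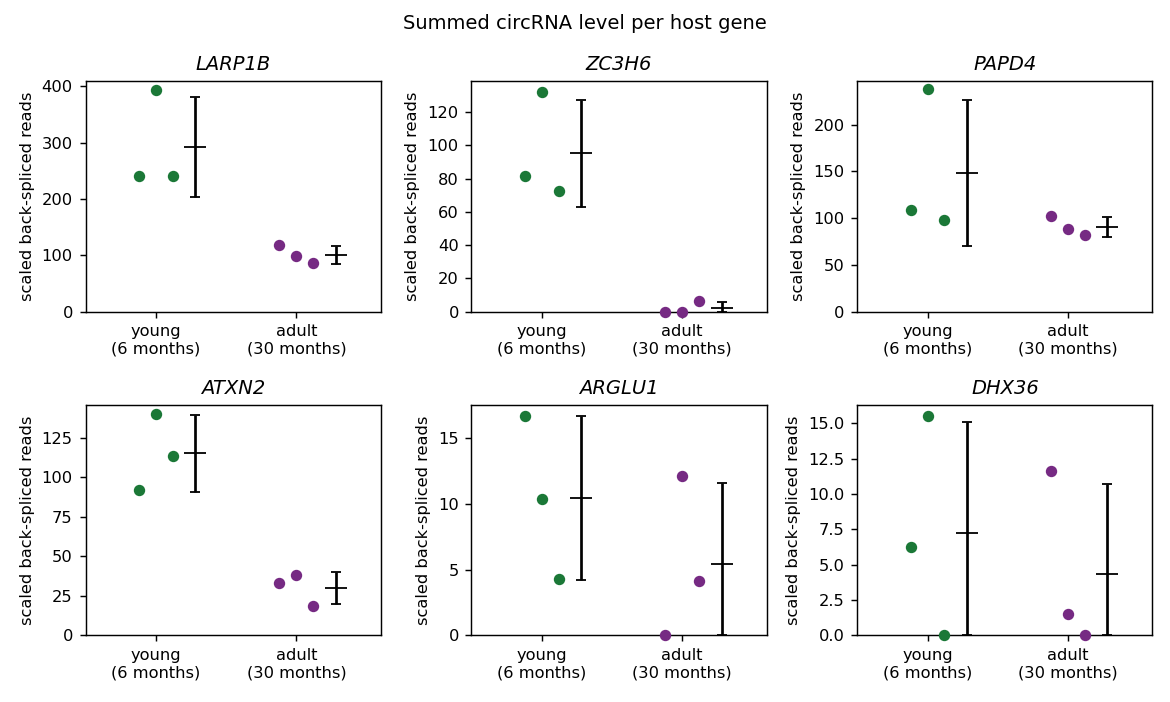
Summed circRNA level of each host gene in scaled back-spliced reads (y axis, linear, own scale per gene), with 1 point per library and the mean ± SD of 3 libraries beside it (SD bars end at 0). The adult points of *LARP1B*, *ZC3H6* and *ATXN2* all lie under the young ones, and the points of the other genes overlap.

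The circRNAs of *LARP1B* summed to 239.9, 394 and 242 scaled reads in young replicates 1 to 3 and to 118, 98.6 and 86.3 in adult replicates 1 to 3. All adult libraries were thus below all young ones, with means of 292 ± 88.4 and 101 ± 16.1 scaled reads (SD, n = 3), a 2.89-fold difference. This difference sat in the 2 circRNAs seen in at least 3 libraries that had the shortest spans. The most abundant, 17:30061534|30064195 (span 2661 bases), had 108, 212 and 142 scaled reads in the young libraries and 13.6, 1.52 and 4.11 in the adult libraries. The means were 154 ± 53.0 and 6.40 ± 6.34 scaled reads, a 24.1-fold difference from 234 young and 10 adult reads. Next to it, 17:30060207|30064195 (span 3988 bases) had 20.9, 38.9 and 17.1 scaled reads in the young libraries and 5.81, 1.52 and 0 in the adult libraries. It was 10.5-fold lower in adults by its means, from 37 young and 4 adult reads. The groups of both circRNAs did not overlap.

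The 4 other *LARP1B* circles with most reads, which close at the same position, had overlapping groups. The circRNA 17:30054876|30064195 (span 9319 bases) had 56.3, 77.7 and 31.3 scaled reads in the young libraries and 48.4, 59.1 and 34.9 in the adult libraries. Its groups overlapped, with means of 55.1 ± 23.3 and 47.5 ± 12.1. The circRNA 17:30033069|30064195 (span 31126 bases) had 23.0 ± 4.12 and 18.7 ± 10.6 scaled reads, and 17:29992548|30064195 had 7.74 ± 0.620 and 6.92 ± 4.48. The circRNA 17:29968991|30064195 had 9.18 ± 6.50 and 8.98 ± 9.76. With both short circRNAs left out, the sum of the others was 112 ± 30.1 in young and 92.2 ± 8.78 in adult libraries, and the groups overlapped.

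The make-up of *LARP1B* circles therefore differed by age as well as their total. The circRNA 17:30061534|30064195 made up 45.2%, 53.9% and 58.8% of the gene's scaled reads in the young libraries and 11.5%, 1.54% and 4.76% in the adult libraries. The share of 17:30054876|30064195 was 18.7% ± 5.34 in young and 47.2% ± 11.1 in adult libraries, and it was the leading circle of the gene in each adult library. Rarer circles of the gene held few reads. The circRNAs 17:30051041|30064195 and 17:30038148|30064195 had 11 and 10 young reads against 4 and 2 adult reads. They were lower in adults by their means, 8.38 against 2.58 and 6.52 against 1.01 scaled reads, but their groups overlapped. The pooled young level of the latter was 5.30 times the adult one (exact 95% counting interval 1.13 to 49.7). This interval leaves out the spread between animals and is no test of age. A further 5 circRNAs were seen in 1 or 2 libraries and held 13 reads in sum, among them 17:29954171|30064195 with 5 adult and no young reads.

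**Figure D2:**
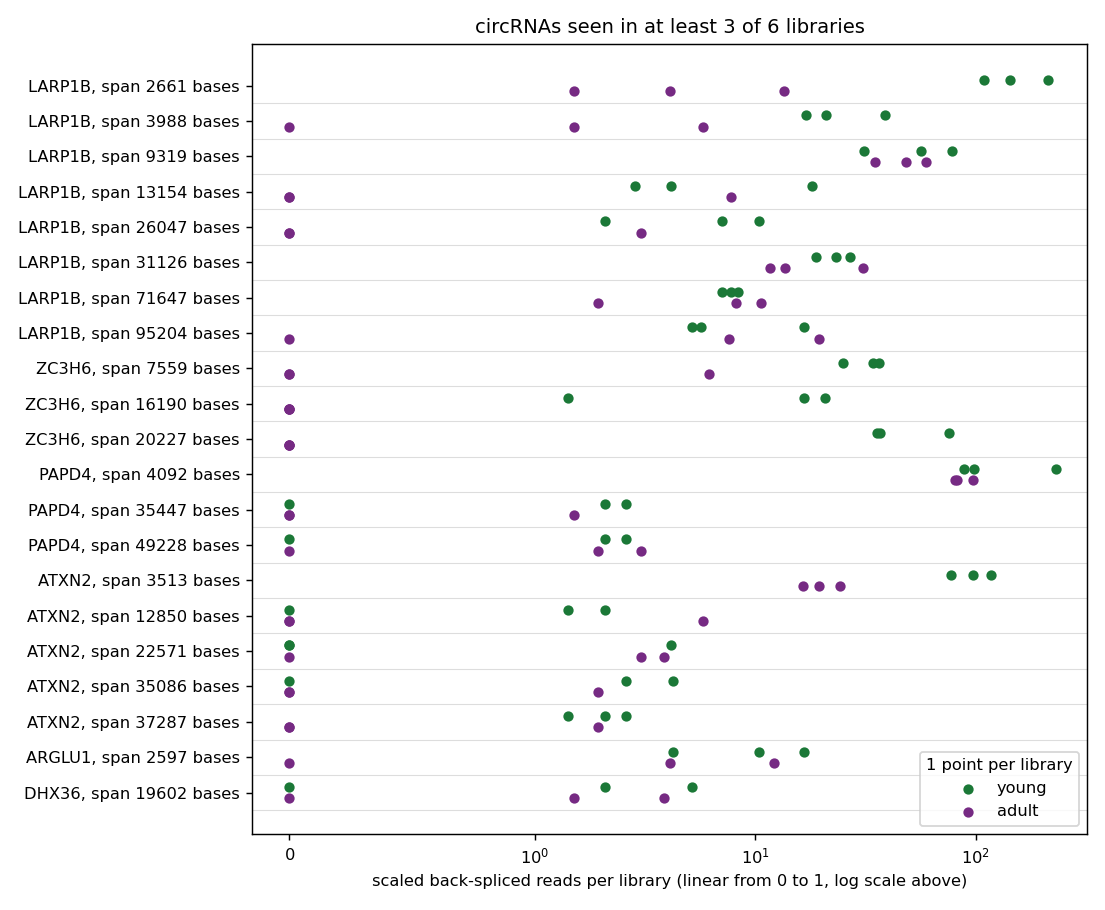
Scaled back-spliced reads per library (x axis, linear up to 1 and logarithmic above) of the 21 circRNAs seen in at least 3 libraries, ordered by gene and span; green points are young and purple points adult libraries, and points at 0 can lie on each other. The *LARP1B* circles of 2661 and 3988 bases separate by age, and the one of 9319 bases does not.

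*ZC3H6* circles were seen in all young libraries and in 1 adult library. They summed to 81.4, 132 and 72.5 scaled reads in the young libraries, and to 0, 0 and 6.17 in the adult libraries. The 141 young reads stood against 3 adult reads, all of them in adult replicate 3. From the pooled reads, the young level was 49.8 times the adult level, with an exact 95% counting interval of 16.7 to 244. Such intervals cover counting error in these libraries only, not the spread between animals, and are no test of age; reads copied from 1 molecule are counted as separate.

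All 3 recurrent *ZC3H6* circRNAs shared this pattern, though 11:91017|111244 and 11:95054|111244 were recurrent through the young libraries only. The circRNA 11:91017|111244 had 35.5, 75.1 and 36.9 scaled reads in the young libraries and no adult read, so it was at least 26.8-fold lower in adults (floor of 3 reads over the 3 adult libraries). The circRNA 11:103685|111244 had 25.0, 36.3 and 34.1 scaled reads in the young libraries, and its 3 adult reads gave 6.17 in adult replicate 3. Its pooled young level was 17.7 times the adult one (exact 95% counting interval 5.70 to 88.5). The circRNA 11:95054|111244 had 16.7, 20.7 and 1.42 scaled reads in the young libraries and no adult read (at least 7.05-fold lower); young replicate 3, with 1 read, stood below the other young libraries. The remaining one, 11:74376|111244, had 2 reads in young replicate 1.

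Of the 21 circRNAs of *ATXN2*, only 17:57494714|57498227 (span 3513 bases) was seen in all 6 libraries. It had 77.2, 117 and 96.6 scaled reads in the young libraries and 19.4, 24.3 and 16.4 in the adult libraries. The groups were far apart, with means of 96.8 ± 19.7 and 20.0 ± 3.95 and a 4.83-fold difference. It held 184 of the gene's 229 reads. All *ATXN2* circles together had 91.8, 139.9 and 114 scaled reads in the young and 32.9, 37.9 and 18.5 in the adult libraries, a 3.87-fold difference of the means. The other 20 circRNAs summed to 18.3 ± 4.49 and 9.75 ± 6.67 scaled reads, from 28 young and 17 adult reads. Young replicate 1 (14.6 scaled reads, from 7 reads) stood just above adult replicate 2 (13.6, from 9 reads). That order rests on the scaled value of 1 read in each library, so no separation of the groups is read from it. Of these 20, 4 were seen in at least 3 libraries. The circRNAs 17:57438836|57461407, 17:57460940|57473790, 17:57460940|57496026 and 17:57460940|57498227 had 2 to 4 young and 1 to 4 adult reads each, with overlapping groups. Of the circRNAs of the gene, 13 were seen in 1 library only, 12 of them by a single read.

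*PAPD4* gave 1 dominant circle, whose level overlapped between the ages. The circRNA 10:10556787|10560879 (span 4092 bases) had 98.0, 231 and 88.1 scaled reads in the young libraries and 96.9, 80.4 and 82.2 in the adult libraries. Young replicate 2 stood far above the other 5 libraries. The gene's circles summed to 148 ± 78.2 and 90.9 ± 10.5 scaled reads, a log2 ratio of −0.71, which was −0.18 without young replicate 2. This circRNA held 341 of the gene's 364 reads, and its share was 92.3% ± 3.83 in young and 95.2% ± 4.38 in adult libraries. The other 8 circRNAs, with 15 young and 8 adult reads, summed to 10.4, 7.77 and 9.95 scaled reads in the young and to 5.81, 7.58 and 0 in the adult libraries. Young replicate 2 (7.77, from 3 reads) stood just above adult replicate 2 (7.58, from 5 reads). That order rests on the scaled value of 1 read in each library, so no separation of the groups is read from it. Of these 8 circRNAs, 10:10556787|10606015 had 2 young and 3 adult reads and 10:10560642|10596089 had 2 young and 1 adult read, and the rest were seen in 1 or 2 libraries.

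*ARGLU1* and *DHX36* gave few circular reads, and their groups overlapped between the ages. The only circRNA of *ARGLU1*, 12:86311491|86314088 (span 2597 bases), had 16.7, 10.4 and 4.26 scaled reads in the young libraries and 0, 12.1 and 4.11 in the adult libraries. Those groups overlapped, from 15 young and 10 adult reads. The 5 circRNAs of *DHX36* summed to 6.26, 15.5 and 0 scaled reads in the young libraries and 11.6, 1.52 and 0 in the adult libraries. Its 1 recurrent circRNA, 1:114255949|114275551, had 3 reads at each age. The sum rested on 9 young against 7 adult reads, and the direction of its means turned with the library left out (a log2 ratio of −0.73 over all libraries, 0.49 without young replicate 2 and −3.26 without adult replicate 1).

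Most circles of *LARP1B*, *ZC3H6* and *PAPD4* shared a splice position within their gene. Of the 13 *LARP1B* circRNAs, 11 ended at 17:30064195, and they held 99.5% of the gene's reads. All 4 *ZC3H6* circRNAs ended at 11:111244. Of the 9 *PAPD4* circRNAs, 6 started at 10:10556787, with 98.4% of the reads. The leading *ATXN2* position, 17:57498227, was used by 4 of 21 circRNAs with 85.6% of the reads. Over the 611 host genes with at least 2 circRNAs and 30 reads, the median for the most used position was 72.6% of the reads and 37.5% of the circRNAs. Strand is not given in the table, so a shared position was not assigned to a donor or an acceptor.

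In type, 51 of the 53 circRNAs were exon circRNAs, and the other 2, both of *ATXN2*, were of the exon-intron type. Spans ran from 390 to 110024 bases. The mark of a circRNA published for cattle was on 4 of them (7.55%, against 4.52% of all circRNAs), 1 each for *PAPD4*, *ATXN2*, *ARGLU1* and *DHX36*. None of the abundant circles of *LARP1B*, *ZC3H6*, *ATXN2* or *PAPD4* carried it. The published ones held 25 reads in *ARGLU1* and 5 or 6 in each of the other genes. In all, 21 of the 53 were seen in at least 3 libraries. Of these, 6 were lower in every adult library than in any young one, namely 3 of *ZC3H6*, 2 of *LARP1B* and 1 of *ATXN2*, and none was higher. Over all 2834 circRNAs seen in at least 3 libraries, 18.5% were lower and 6.46% higher in that way. For 11:91017|111244 and 11:95054|111244 of *ZC3H6* the direction was fixed in advance. They had no adult read and reached 3 libraries through the young group only. The 32 circRNAs seen in 1 or 2 libraries held 65 reads, and 18 of them rested on a single read.

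In FPKM as deposited, the mRNA of *ARGLU1*, *PAPD4* and *ATXN2* fell with age, and that of *LARP1B*, *ZC3H6* and *DHX36* did not pass the test. FPKM, fragments per length of transcript and depth of library, was tested as log2(FPKM + 1) with limma across the 14695 genes and transcripts whose mean FPKM reached 0.5, with calls made below 0.05 after Benjamini-Hochberg adjustment. Of all those tested, 9.3% were called lower and 10.5% higher in adults, against 3 lower and none higher among these genes. Summed over all transcripts, assembled ones included, FPKM was 1.09e+06 to 1.24e+06 in young and 6.57e+05 to 7.22e+05 in adult libraries. FPKM was not set to a common total, which would raise the adult values against the young ones, and calls on such a scale were not tested. Falls would be smaller there, and genes with little change here, such as *LARP1B* and *DHX36*, could be higher in adults. The splicing factor gene *ARGLU1* had 208, 226 and 243 FPKM in the young libraries and 32.9, 30.5 and 29.5 in the adult libraries. The groups were far apart, with a log2 fold change of −2.82 and an SE of 0.18 (limma adjusted p = 8.23e-05). The call was kept with each library left out (adjusted p of 0.00184 or less). The poly(A) polymerase gene *PAPD4* had 38.6, 60.4 and 39.8 FPKM in the young libraries and 13.6, 15.6 and 19.0 in the adult libraries. It fell by 1.45 on the log2 scale (SE 0.24, limma adjusted p = 0.00915), with an adjusted p of 0.0510 without adult replicate 2. *ATXN2* had 36.9, 45.4 and 50.1 FPKM in the young libraries and 19.2, 22.8 and 21.9 in the adult libraries. It fell by 1.01 (SE 0.19, limma adjusted p = 0.0144), and the call was lost without adult replicate 1, 2 or 3 (0.0688, 0.0625 and 0.0512).

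*ZC3H6* mRNA was lower in each adult library than in any young one, but did not pass. It had 12.2, 18.4 and 9.48 FPKM in the young libraries and 3.81, 7.65 and 6.35 in the adult libraries (log2 fold change −1.04 with an SE of 0.32, limma adjusted p = 0.0589). Without overlap on the deposited scale, 4 of the 6 genes were lower and none was higher in adults, as were 20.4% and 22.3% of all genes and transcripts tested. *LARP1B*, whose 2 short circles were so much lower in adults, had 12.6, 16.2 and 17.4 FPKM in the young libraries and 13.7, 12.9 and 13.1 in the adult libraries. Its groups overlapped, and the log2 fold change was −0.20 with a 95% interval of −0.64 to 0.25 (limma adjusted p = 0.485). The helicase gene *DHX36* had 20.1, 36.7 and 30.1 FPKM in the young and 32.8, 32.3 and 33.4 in the adult libraries, with a log2 fold change of 0.22 (95% interval −0.36 to 0.79, limma adjusted p = 0.547).

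**Figure D3:**
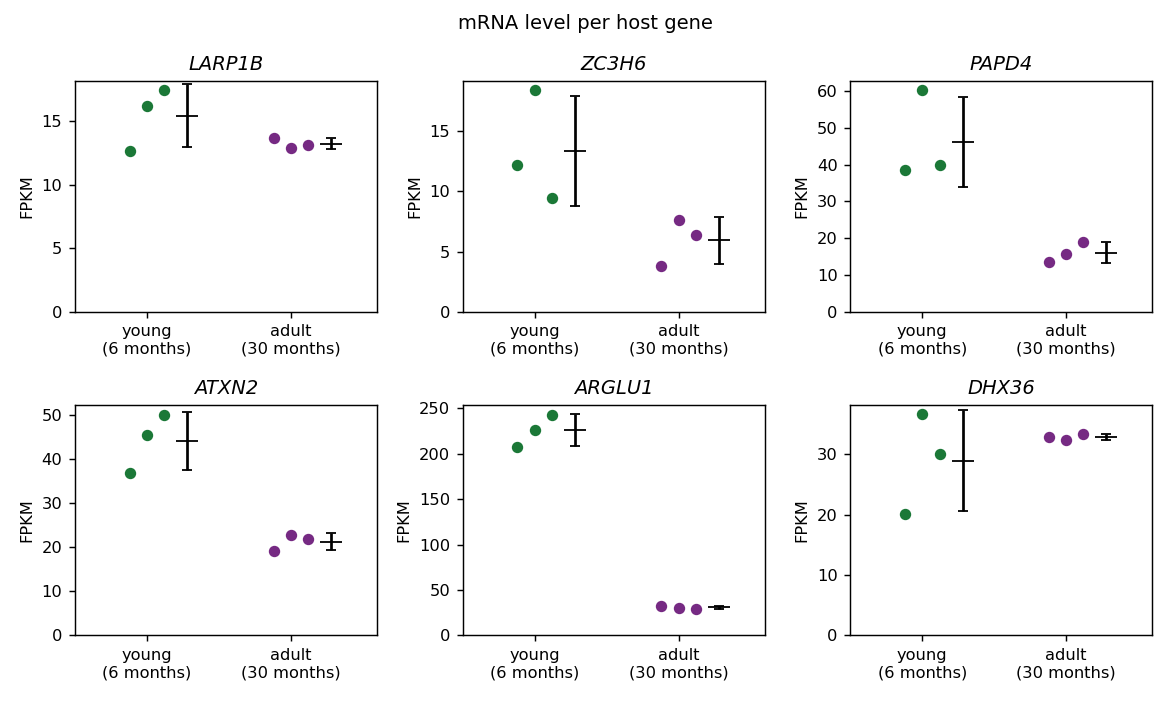
mRNA level of each host gene in FPKM (y axis, linear, own scale per gene), with 1 point per library and the mean ± SD of 3 libraries beside it. The adult points lie under the young ones in *ARGLU1*, *PAPD4*, *ATXN2* and *ZC3H6*, and overlap with them in *LARP1B* and *DHX36*.

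The order of the mRNA levels, in FPKM and thus per length, also differed by age. In young libraries *ARGLU1* (226 ± 17.5 FPKM) stood above *PAPD4* (46.2 ± 12.3) and *ATXN2* (44.1 ± 6.67), which overlapped. *DHX36* (28.9 ± 8.38) came next, and *LARP1B* (15.4 ± 2.48) and *ZC3H6* (13.4 ± 4.60) overlapped at the low end. In adult libraries *DHX36* (32.8 ± 0.518) and *ARGLU1* (31.0 ± 1.75) overlapped at the top. *ATXN2* (21.3 ± 1.90) came next, then *PAPD4* (16.1 ± 2.75) and *LARP1B* (13.2 ± 0.434), which overlapped, and *ZC3H6* (5.94 ± 1.95) was lowest. Reads from inside a circle also count towards FPKM in libraries that keep both forms, and their part in these values was not tested.

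Markers of several cell types differed between the ages as well. The summed FPKM of 5 measured adipocyte markers of 13 (*PLIN4*, *CIDEC*, *LPL*, *PPARG* and *DGAT2*) was 373 to 2326 in young and 4691 to 8157 in adult libraries, and 2 of the 5 rose; the other 8 had no named mRNA here. The 5 of 6 endothelial markers summed to 143 to 276 and 299 to 353 FPKM, and 1 rose. The 3 of 6 macrophage markers summed to 144 to 194 in young and 50.9 to 78.5 in adult libraries, and 1 fell. The 2 of 5 smooth muscle markers summed to 80.0 to 184 and 30.9 to 48.6, and both fell. Of the 5 genes listed for lymphocytes only *PTPRC* was measured, so lymphocytes as such were not followed. *PTPRC* had 4.28 to 28.7 FPKM in young and 2.43 to 3.54 in adult libraries, without overlap, and did not pass. The sums of the 2 of 6 stromal markers overlapped (723 to 1682 and 709 to 1171), and 1 of them fell. The 1 of 7 skeletal muscle markers overlapped too (0.0857 to 1.07 and 0.101 to 0.614) and did not pass. No measured marker was at 0 in all libraries. The part of cell composition in the results was not tested.

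Of the 2 named transcripts of *PAPD4*, 1 fell with age and the other did not pass the test. ENSBTAT00000048886 had 24.6, 37.2 and 31.4 FPKM in the young libraries and 5.52, 5.07 and 8.92 in the adult libraries. With each of 14994 transcripts tested singly, it fell by 2.11 on the log2 scale (SE 0.26, limma adjusted p = 0.00298), and 9.31% of all transcripts were called lower and 10.6% higher. The call held whichever library was left out (adjusted p of 0.00707 to 0.0212), an alternative chosen after seeing the data. ENSBTAT00000008885 had 13.9, 23.2 and 8.39 FPKM in the young libraries and 8.07, 10.6 and 10.1 in the adult libraries, with overlapping groups (log2 fold change −0.51, 95% interval −1.33 to 0.30, limma adjusted p = 0.326). The ratio of the first to the second was 1.77, 1.61 and 3.74 in young and 0.684, 0.480 and 0.884 in adult libraries. Every young ratio was above every adult one (p = 0.1 by a two-sided exact permutation test, which cannot go lower with 3 against 3). The dominant *PAPD4* circle, 10:10556787|10560879, is assigned to both transcripts in the table.

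A lncRNA of 2372 bases is placed by the authors' table in an intron of ENSBTAT00000008885 of *PAPD4*. It had 11.7, 10.7 and 5.36 FPKM in the young libraries and 2.62, 2.89 and 3.66 in the adult libraries, a 3.04-fold difference of the means. The groups did not overlap, as was so for 10.7% of the 9155 lncRNAs whose mean FPKM reached 0.1, in that direction. No lncRNA of the table is assigned to transcripts of the other 5 genes.

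Set against the mRNA of the same gene in FPKM as deposited, circular reads were lower in adults for *LARP1B*, *ZC3H6* and *ATXN2*. For *PAPD4* they were higher on this scale. Scaled back-spliced reads per FPKM of *LARP1B* were 19.0, 24.4 and 13.9 in the young libraries and 8.63, 7.67 and 6.60 in the adult libraries. Those of *ZC3H6* were 6.69, 7.16 and 7.64 in the young libraries and 0, 0 and 0.971 in the adult libraries. *ATXN2* had 2.49, 3.08 and 2.27 in the young and 1.72, 1.66 and 0.843 in the adult libraries, so that its circles were lower by more than its mRNA. *PAPD4* went the other way, with 2.81, 3.95 and 2.46 in the young and 7.56, 5.63 and 4.32 in the adult libraries. In none of these 4 genes did the groups overlap. Over the 2076 host genes with both values, those of few reads included, 17.4% were lower and 4.34% higher in adults without overlap. For *ARGLU1* and *DHX36* the groups overlapped (0.0479 ± 0.0314 and 0.179 ± 0.202 scaled reads per FPKM, and 0.245 ± 0.219 and 0.134 ± 0.192). This ratio depends on both scales and is given as a description, as it holds circRNA values, taken to have entered the choice of genes. FPKM summed over all transcripts was lower in every adult library, and the ratio was not set to a common total. A common total would lower the adult ratios against the young ones. The higher adult ratio of *PAPD4* may therefore not hold on such a scale, which was not tested.

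**Figure D4:**
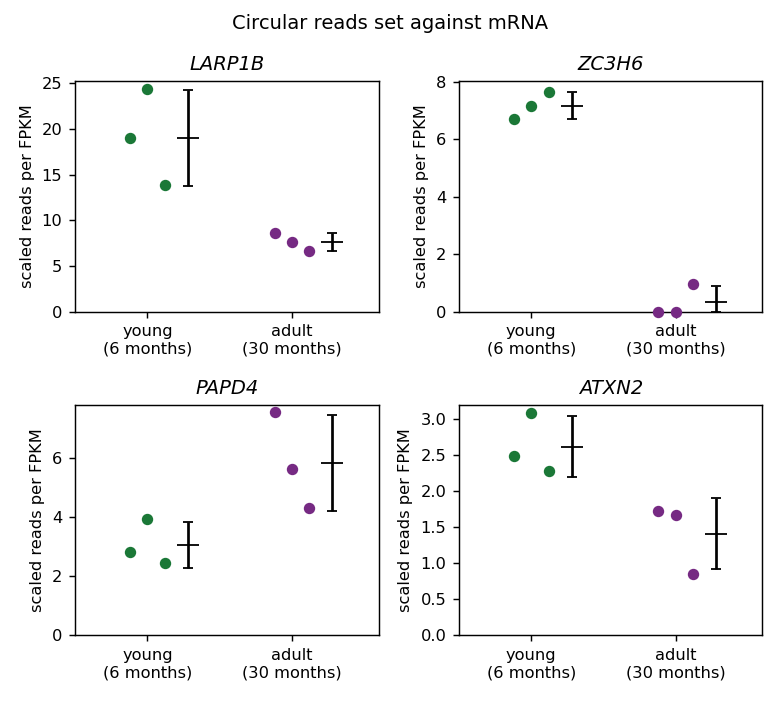
Scaled back-spliced reads per FPKM of the same gene (y axis, linear, own scale per gene) for the 4 genes with over 100 back-spliced reads, with 1 point per library and the mean ± SD of 3 libraries. With FPKM as deposited and not set to a common total, adult points lie below the young ones in *LARP1B*, *ZC3H6* and *ATXN2*. In *PAPD4* they lie above them on this scale.

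Other genes of RNA handling were called in both directions. Of 154 listed symbols (aliases included), 78 had a tested mRNA, of which 15 fell, 3 rose and 60 did not pass (limma, same fit). Of all 14695 genes and transcripts 9.3% fell and 10.5% rose, with a median log2 fold change of 0.01, and no list was tested against them. The lists were chosen with earlier results of these data known, so their counts are no independent support for the members. The 78 are all circRNA host genes, since only genes named in the circRNA data carry a symbol here. Most of the 14695 are single transcripts with no symbol, and the share among host genes alone was not computed. A list of 14 held SR and SR-like splicing proteins, the class to which ARGLU1 is closest, and kinases of SR proteins. Of these 14, 6 fell, a kinase gene among them, and none rose (median −0.34). *SRSF11*, a splicing regulator, fell from 190.5 ± 76.1 to 39.1 ± 6.85 FPKM (−2.20 on the log2 scale, limma adjusted p = 0.00452). *LUC7L3*, a relative of a U1 snRNP factor, fell from 104 ± 6.03 to 32.1 ± 9.13 (−1.71), *RBM25* from 66.3 ± 22.5 to 25.0 ± 0.941 (−1.33) and *SRRM1* had a log2 fold change of −0.98. Of 21 genes of RNA tailing and deadenylation, the class of PAPD4, 4 fell and 1 rose (median −0.09). *CNOT3*, a subunit of the CCR4-NOT deadenylase, fell by 1.79, *PAN3*, of the PAN2-PAN3 deadenylase, by 1.07 and the poly(A) polymerase *PAPD7* by 0.99, while *PAPOLA*, the main nuclear poly(A) polymerase, rose from 46.9 ± 6.86 to 93.8 ± 8.01 FPKM (0.99, limma adjusted p = 0.0150).

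Of 11 CCCH zinc finger genes, the class of ZC3H6, 3 fell and none rose (median −0.31), namely *ZC3H8* (−1.32), *ZC3H13* (−1.26) and *ZC3H4* (−1.17). Of 4 La-related genes, *LARP7*, which binds 7SK RNA, fell by 1.48 and *LARP4* rose by 0.84 (median 0.25). Of 19 partners of ataxin-2 and RNA granule proteins, the decapping gene *DCP1B* fell by 1.47, the translational repressor gene *PUM2* rose by 0.74 and 17 did not pass (median −0.02). Of 9 DEAH and DExH helicases none was called by limma and none had an unadjusted p under 0.05 (median 0.05). *ZC3H4*, *ZC3H13*, *CNOT3*, *SRSF11* and *LUC7L3* were called whichever library was left out. The other 13 calls were all lost without adult replicate 2 (adjusted p of 0.0556 to 0.133); in place of 15 lower and 3 higher, 6, 5 and 9 were lower and none higher with adult replicate 1, 2 or 3 left out. With young replicate 3 left out, 16 were lower and 8 higher, and with young replicate 1 left out 13 were lower and 2 higher.

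The circRNA sums of the related genes gave almost no calls. Of 49 that were tested, 1 fell and none rose (limma over 2090 host genes, of which 2.44% were called lower and 0.67% higher). It was *ZC3H13*, a subunit of the m6A methylation complex, with 42.4 ± 3.16 scaled reads in the young and 8.05 ± 6.45 in the adult libraries (−2.48 on the log2 scale with an SE of 0.60, limma adjusted p = 0.0321). That call was lost without any 1 young library (0.135 to 0.191), without adult replicate 2 (0.0996) or 3 (0.0522), and with reads set against all back-spliced reads (0.0576). List medians were −2.09 for 3 La-related genes, −0.62 for 7 CCCH zinc finger genes, −0.60 for 14 genes of RNA tailing, −0.83 for 13 granule proteins, 0.29 for 8 helicases and −0.52 for 4 genes of SR and SR-like proteins and SR protein kinases, beside −0.40 over all sums. The first is the value of *LARP1*, which was not called and had 3.59 ± 1.95 scaled reads in young libraries and no adult read. It passed the filter through the young group only, so its direction was fixed in advance. This also holds for *ZCCHC6* and *DHX8*, with no adult read, and in the other direction for *CNOT4*, with no young read. By limma, 13 of the 49 had an unadjusted p under 0.05. The share over all host genes was not computed, so nothing is read from that count.

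The host genes with the circular profile most like a member were found by the root mean square difference of centred log2(scaled reads + 1) over the 6 libraries, among host genes with a read in each library and at least 30 in all. For *LARP1B* these were *CEP112* (0.30) and *DEPTOR* (0.31), against a median of 0.98 over 535 host genes. For *ATXN2* they were *IFT74* (0.17) and *PDCD6IP* (0.33), with a median of 1.14. *IFT74*, an intraflagellar transport gene, had 35.5, 67.4 and 54.0 scaled reads in the young and 11.6, 16.7 and 6.17 in the adult libraries. For *PAPD4* they were *RUNX1T1* (0.18) and *NBEA* (0.26), with a median of 0.85. *RUNX1T1*, a corepressor gene, was also highest in young replicate 2, with 46.6 scaled reads against 16.4 to 22.7 in the other libraries. The matches of *ARGLU1* (*ROCK1*, 0.57, and *JMJD1C*, 0.65) and *DHX36* (*SOX5*, 0.64, and *ZNF236*, 0.81) rest on 25 and 16 reads.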

How the data were processed

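Subcutaneous adipose tissue of 3 young (6 months) and 3 adult (30 months) buffaloes was sequenced by the authors after rRNA depletion, 1 library per animal. Reads were trimmed with Trim Galore, aligned to cattle UMD3.1 with STAR, and circRNAs were called with CIRCexplorer2. The genome is that of another species, so reads over diverged sequence can be lost. Of all circRNAs, 786 had no symbol or several and were assigned to no host gene. For circRNAs the deposited value is a log2(x + 1), where x is a scaled number of back-spliced reads. In 100% of the values above 0, x was a whole multiple of 1 step per library (tolerance 1e-06 reads), which gave the reads. The deposited mRNA and lncRNA values are log2(FPKM + 1) by the authors, on cattle Ensembl transcripts. The labels name TopHat2 2.0.14 and Cufflinks with no role, and counts behind FPKM were not used here, so their depth is unknown. The authors' group means, fold changes and p-values were not used.

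FPKM was summed over the transcripts that the circRNA table names for a gene (3995 genes); other Ensembl transcripts entered singly, and 58053 assembled transcripts were left out. A named transcript is not always the whole gene. Tests used limma 3.58.1 (eBayes with trend) in R 4.3.3, adult minus young, pseudocount 1, mean FPKM of at least 0.5, and for circRNA sums a read in at least 3 libraries. The steps were tested on simulated data. Members and lists were chosen with earlier results of these data known. Named genes were all members, each circRNA of them seen in at least 3 libraries, up to 4 called mRNAs and 2 called circRNA sums per list of related genes, and the 2 host genes of most similar profile, which for *ZC3H6* are not reported here. Other circRNAs of the members, and *LARP1*, *ZCCHC6*, *DHX8* and *CNOT4* for their circRNA sums, were named after their values were seen. Alternatives changed the pseudocount, filter, scaling, variance model and transcript handling, added the replicate number as a block and left out each library. Animals are separate, so p-values measure the spread between animals.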

Additional observations from a re-analysis of the deposited data

How the results depend on the processing

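The circRNA sums of *LARP1B*, *ZC3H6* and *ATXN2* also did not overlap with reads set against all back-spliced reads or with circRNAs in at least 2 libraries only; leaving out a library cannot make such groups overlap. Without adult replicate 3, *ZC3H6* had no adult read and no ratio was computed. The mRNA calls of *ARGLU1*, *PAPD4* and *ATXN2* were kept with a pseudocount of 0.1, without a filter, with a mean FPKM of at least 1, with median-centred libraries and without the trend, and their number was 1 to 3 with a library left out. The log2 fold change of *DHX36* mRNA was −0.016 to 0.40 with a library left out, and turned its sign without young replicate 1. Same-numbered animals did not deviate together (r of −0.125 to −0.0313 for mRNA and −0.0155 to 0.00852 for circRNA sums), so the numbers do not pair them. With the replicate block, *ATXN2* did not pass (adjusted p = 0.0521), and the calls for mRNA of related genes became 8 lower and 0 higher. With a library left out these were 5 to 16 lower and 0 to 8 higher. For circRNA sums of related genes, calls were 0 lower with reads set against all back-spliced reads and 0 lower with a pseudocount of 0.5, and 2 lower and 1 higher with voom weights; with a library left out they were 0 to 1 lower. Limma's prior degrees of freedom for these sums were infinite with the block, without a filter and with voom, so that a gene's own spread did not enter its p there. A circRNA of few reads, as in *ARGLU1* and *DHX36*, limits what can be seen at this depth. Over all genes and transcripts, calls were 1543 higher and 1366 lower, 675 and 794 with the block, and 367 to 1688 and 553 to 1333 with a library left out. Over all circRNA sums they were 14 higher and 51 lower, 64 and 119 with voom weights, 19 and 23 with reads set against all back-spliced reads, 3 and 15 with a pseudocount of 0.5, and 0 to 10 and 1 to 44 with a library left out.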
